A study of Mus musculus with 2 samples.

Results

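Irx1, Irx2, Ttr, Arg1, Hhex, Rbp4 and Ly6h were followed in islet cells as genes linked to the glucagon-producing α-cell or the somatostatin-producing δ-cell. They were taken by symbol, and each matched 1 of the 31054 features in both libraries. The interest lay in where they were detected outside their own lineage, in cells with insulin as their only hormone and in cells with 2 hormones. Single-cell RNA-seq had been performed on pancreatic islets of Tg7 mice and of Wild-type littermate controls, all male, C57Bl6 and at 12 weeks of age. Tg7 mice overexpress the microRNA miR-7a2 specifically in their β-cells, which in this model lose identity, and the animals become diabetic. Mice of both groups carried a Rosa26 tdTomato reporter that was switched on by an insulin-Cre, according to the study's methods, and tdTomato was among the features. Each group was 1 library from islets of a number of mice not given in the sources used here, so no difference below has a replicate check and no p-value was computed.

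Islet endocrine cells share one developmental origin, and each type is held apart by its own transcription factors. Irx1 and Irx2 are Iroquois homeodomain transcription factors of α-cells, and Ttr encodes transthyretin, a carrier of thyroxine and of retinol-binding protein that is abundant in α-cells. Hhex is a homeobox transcription factor needed for δ-cells in mice, and Rbp4 encodes the retinol carrier that binds transthyretin in plasma. Arg1 encodes arginase, the last enzyme of the urea cycle, and Ly6h encodes a membrane-anchored protein of the Ly6 family known from neurons. In mouse build GRCm38, which is the mm10 build of the files, Irx1 lies on chromosome 13 from 71958232 to 71963723 and Irx2 on the same chromosome from 72624430 to 72634196. Hhex lies on chromosome 19 from 37434841 to 37440731 and Rbp4 on the same chromosome from 38116620 to 38125321.

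The product of the transgene is shown because the Tg7 and Wild-type islets differ by it. Mature miR-7a-5p, as RefSeq gives it for the Mir7-2 gene on GRCm38.p6 (chromosome 7, 78888295 to 78888317, plus strand), is written 5′ to 3′ with the seed, bases 2 to 8, in capitals.
mmu-miR-7a-5p: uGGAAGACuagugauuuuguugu
The letters complementary to this seed, GTCTTCC in a transcript written as DNA, were searched in the longest annotated 3′ end of each gene in GENCODE M1, an annotation of an older build. None of the 7 genes held them, in 3′ ends of 252 (Rbp4) to 2263 bases (Ly6h), whereas 11.2% of 19915 genes did. Among genes with 3′ ends of like length, 3.19% held them at the length of Rbp4 and 19.7% at that of Ly6h. The absence of these letters is a description of the annotated ends only.

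In the Tg7 library 992 cells were kept, with a median of 24268.5 UMIs, and in the Wild-type library 744 cells with a median of 39571.5 UMIs (a UMI is a tag that counts 1 captured RNA molecule). No barcode sequence was shared by the libraries. A cell counted as positive for a hormone if the hormone took at least 0.1 times the median share seen in the same library's cells led by that hormone. These thresholds were 2.73% of UMIs for insulin (Ins1 plus Ins2), 4.27% for Gcg, 1.38% for Sst and 1.88% for Ppy in Tg7, against 6.36%, 4.0%, 1.18% and 3.72% in Wild-type. This gave 533 insulin-only, 149 Gcg-only, 11 Sst-only and 23 Ppy-only cells in Tg7, against 478, 133, 22 and 11 in Wild-type. Cells with insulin and Gcg numbered 58 in Tg7 and 2 in Wild-type, those with insulin and Sst 37 and 13, and those with insulin and Ppy 52 and 0. Some calls lay close to a threshold, with 83 Tg7 and 6 Wild-type cells within 2-fold of the Gcg threshold. For Ppy these were 101 and 34 cells, for Sst 50 and 21, and for insulin 19 and 3. Levels are given as CPM, the UMIs of a gene summed over a class per 1000000 UMIs of all genes except 7 hormone genes (Ins1, Ins2, Gcg, Sst, Ppy, Pyy and Iapp), which took 43.1% of UMIs in Tg7 cells and 63.2% in Wild-type cells. Ranges in brackets are 95% exact intervals that cover counting error only.

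The 7 genes were first set against their labels in the single-hormone classes. Irx1 stood at 110 CPM (92.7-130) in Gcg-only cells of Tg7 and 113 (94.9-133) in those of Wild-type, and it had 0 UMIs in Sst-only cells of both libraries. Irx2 stood at 144 CPM (123-166) in Gcg-only cells of Tg7 and 134 (114-156) in those of Wild-type, with 1 and 0 UMIs in Sst-only cells. Ttr reached 69918 CPM in Gcg-only cells of Tg7 and 58645 in those of Wild-type. It was lowest among the single-hormone classes in Sst-only cells, at 335 (199-530) and 144 CPM (87.7-222). The 3 genes were thus led by the glucagon class in both libraries.

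Hhex stood at 205 CPM (102-367) in Sst-only cells of Tg7 and 323 (236-432) in those of Wild-type, and Gcg-only cells held 1 and 0 UMIs of it. Ly6h stood at 428 CPM (271-643) in Sst-only cells of Tg7 and 510 (398-643) in those of Wild-type, with 0 UMIs in 149 and 133 Gcg-only cells, which at 3 cells of the class allows a share of cells with a UMI of up to 2.01% and 2.26%. Rbp4 was led by the same class, at 5567 CPM (4954-6236) in Tg7 and 7221 (6781-7681) in Wild-type, but it was also carried by nearly every Gcg-only cell. Its level there was 1435 CPM in Tg7 (94.6% of cells with a UMI) and 1480 in Wild-type (99.2%). Cells with Sst and Ppy, 11 in Tg7 and 9 in Wild-type, held these genes at like levels, with Hhex at 225 (135-351) and 354 CPM (227-526) and Rbp4 at 6188 (5669-6742) and 5763 (5206-6364).

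Arg1 did not sort with the α-side genes. Its level was 242 CPM (129-414) in Sst-only cells and 57.9 (45.4-72.8) in Gcg-only cells of Tg7. In Wild-type it was 223 (151-316) in Sst-only cells and 81.1 (66.2-98.4) in Gcg-only cells, and in neither library did the intervals of these classes overlap. Arg1 is also known as an enzyme of activated macrophages, and the 22 macrophage-like cells of Tg7 and the 8 of Wild-type held 0 UMIs of it, which allows shares of cells with a UMI of up to 13.6% and 37.5%. Of the 7 genes, Hhex was the one detected in endothelial-like cells of both libraries, in 3 of 9 in Tg7 and 11 of 23 in Wild-type, at 49.9 (13.6-128) and 79.0 CPM (46.8-125). The other 6 genes had at most 2 UMIs over the endothelial-like cells of either library. Hhex is known to be expressed in endothelium as well as in δ-cells.

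Cells with Ppy as their only hormone, the hormone of γ-cells, numbered 23 and 11 and gave few UMIs of most of the genes. Ttr stood there at 7199 CPM in Tg7 and 5737 in Wild-type, and Rbp4 at 376 (298-470) and 352 (251-479). Irx1 had 2 and 0 UMIs, Irx2 3 and 4, Hhex 1 and 0, and Ly6h 0 and 0. Over these small classes 3 UMIs amount to 14.5 CPM in Tg7 and 26.4 in Wild-type. As a level, Irx2 was at 14.5 CPM (2.99-42.3) and 35.2 (9.59-90.1), against 5.59 and 1.47 in insulin-only cells. In cells with Gcg and Ppy, 41 in Tg7 and 14 in Wild-type, Irx2 stood at 119 CPM (89.7-154) and 95.4 (47.6-171) and Irx1 at 72.1 (49.9-101) and 34.7 (9.45-88.8). Ttr stood there at 38788 and 28530 CPM, and both Ttr levels and the Wild-type level of Irx1 lay under those of Gcg-only cells with no overlap of intervals. Hhex and Ly6h had 0 UMIs in both libraries.

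**Figure D1:**
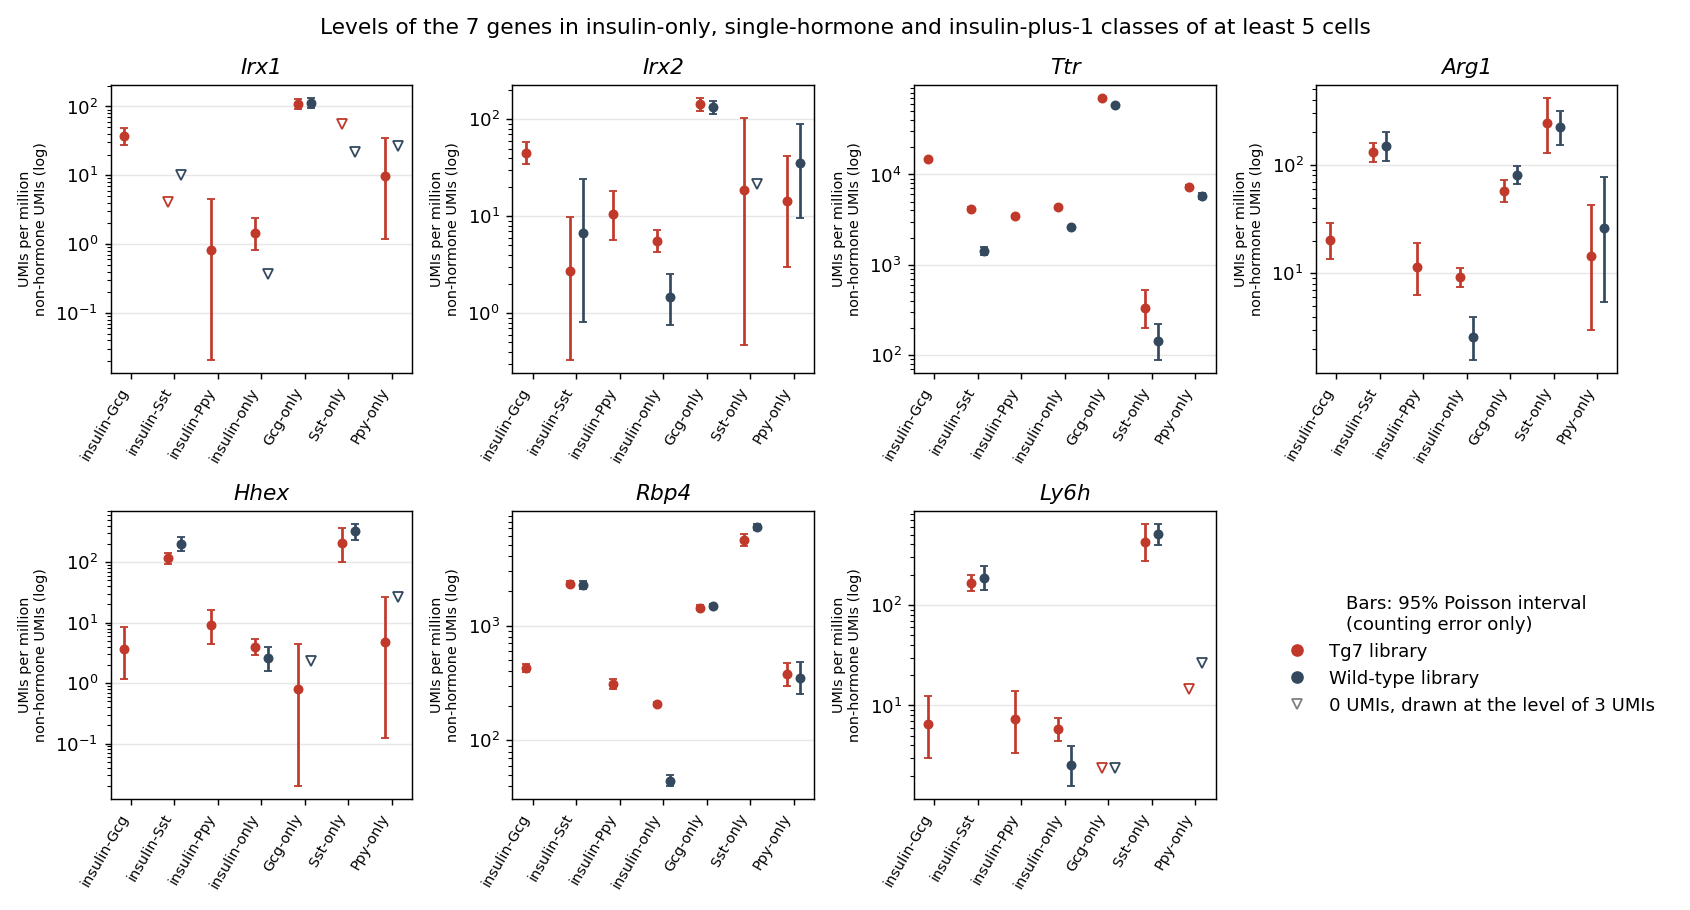
Level of each gene (CPM of non-hormone UMIs, log axis) in the 4 single-hormone classes and the 3 classes with insulin and another hormone, drawn from 5 cells up, in Tg7 (red) and Wild-type (dark), with bars for the 95% Poisson interval and open triangles at the level of 3 UMIs where the count was 0. Among these 7 classes Irx1, Irx2 and Ttr peak in Gcg-only cells and Hhex, Rbp4 and Ly6h in Sst-only cells, Arg1 is higher in Sst-only than in Gcg-only cells, and the cells with insulin and another hormone lie between insulin-only cells and the class of that hormone for the genes of that class.

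In insulin-only cells the question was whether genes of the other lineages were present in Tg7 where Wild-type β-cells lacked them. A gene was called at 2-fold with at least 20 UMIs over both groups. Of the 6 genes that reached this count, Irx2, Arg1, Rbp4 and Ly6h were at least 2-fold higher in Tg7 and 0 were 2-fold lower, whereas 9.91% of 12618 genes were called higher and 6.25% lower. The median log2 ratio was 1.51 over the 6 genes and -0.03 over all genes. Scaled to all UMIs, each ratio was 1.75 times as large and all 6 genes passed 2-fold. That scaling turned the split over all genes from 1250 higher and 789 lower into 4209 higher and 237 lower, with a median log2 ratio of 0.78. After thinning every cell to 2000 non-hormone UMIs, 1 gene, Rbp4, had enough UMIs and passed 2-fold.

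Of the 4 genes called higher in Tg7, Rbp4 was found in the most insulin-only cells. In Tg7 it had 2107 UMIs, or 207 CPM (198-216), and in Wild-type 366 UMIs, or 44.7 CPM (40.3-49.6), a ratio of 4.62 (4.14-5.18). At least 1 UMI was found in 59.8% of 533 Tg7 cells and in 9.41% of 478 Wild-type cells. After thinning every cell to 2000 non-hormone UMIs, with 15 Tg7 and 4 Wild-type cells too shallow to keep, the shares were 23.4% and 3.38%. Free RNA gives UMIs in cells that do not express a gene, and in droplets of endothelial-like cells Rbp4 was found in 0 of 9 in Tg7 (up to 33.3%) and in 2 of 23 (8.70%) in Wild-type. In Wild-type its level was 44.7 CPM in insulin-only cells and 8.78 (1.06-31.7) in endothelial-like cells, at median depths of 14602 and 8643 non-hormone UMIs. In macrophage-like cells Rbp4 had 0 UMIs in 22 Tg7 cells and in 8 Wild-type cells, at median depths of 4744 and 7474.5 non-hormone UMIs, and the part of free RNA was not tested.

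The sequence upstream of Rbp4 is shown because this gene carried the broadest difference between Tg7 and Wild-type insulin-only cells. RefSeq's table holds a pair of start sites for Rbp4, and the 250 bases before one of them (GRCm38.p6, chr19:38124812-38125061, minus strand) contain TATAAA, in capitals, beginning 28 bases before the start.
Rbp4 promoter: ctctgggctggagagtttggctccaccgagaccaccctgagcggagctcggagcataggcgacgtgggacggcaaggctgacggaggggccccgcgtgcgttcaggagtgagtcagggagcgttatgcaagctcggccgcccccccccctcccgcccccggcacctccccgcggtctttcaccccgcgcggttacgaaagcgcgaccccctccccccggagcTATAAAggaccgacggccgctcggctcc
TATAAA on either strand was found in 13.6% of 32851 windows of 300 bases around start sites, and in none of those listed for Irx2 and Hhex. TAATTA, a core that many homeodomain proteins bind, was in none of the windows of Irx2, Hhex or Rbp4 and in 5.29% of all. Windows of the other 4 genes were not matched.

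Ttr was present in nearly every insulin-only cell of both libraries, in 528 of 533 in Tg7 and 476 of 478 in Wild-type. Its level was 4305 CPM (4265-4345) in Tg7 and 2628 (2593-2664) in Wild-type, a ratio of 1.64 (1.61-1.66) that stayed under 2-fold on this scale. A cell's median level was 3664 CPM in Tg7 and 2405 in Wild-type. Of insulin-only cells 59.8% held over 50 Ttr UMIs in Tg7, against 31.2% in Wild-type.

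The α-cell transcription factors were sparse in insulin-only cells. Irx2 had 57 UMIs in 40 Tg7 cells and 12 UMIs in 9 Wild-type cells, a ratio of 3.82 (2.02-7.81) that was 1.83 after thinning. Irx1 gave 15 UMIs in 7 Tg7 cells and none in 478 Wild-type cells. Taking 3 UMIs over the class as the floor, this is at least 4.02-fold higher on fewer than 20 UMIs, and 33.3% of these UMIs came from 1 cell. Both stood far under Gcg-only cells of the same library, where 61.7% of Tg7 cells held Irx2 and 53.7% held Irx1.

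Arg1 had 94 UMIs in 68 Tg7 cells and 21 UMIs in 16 Wild-type cells, a ratio of 3.60 (2.22-6.08). Ly6h had 59 UMIs in 25 Tg7 cells and 21 in 8 Wild-type cells, a ratio of 2.26 (1.35-3.91), which dropped to 1.17 when each cell was weighted equally. Hhex had 41 UMIs in 22 Tg7 cells and 21 in 9 Wild-type cells, a ratio of 1.57 (0.905-2.79) whose interval includes 1 and whose direction turned to 0.55 with equal weight for each cell. A single cell held 33.3% of the Wild-type UMIs of Hhex and 12.2% of those of Tg7.

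Many of the UMIs of Irx1, Hhex, Ly6h, Rbp4 and Arg1 came from insulin-only cells with a trace of another hormone. Cells with Gcg, Sst or Ppy at 0.1 times its threshold or more numbered 105 in Tg7 and 17 in Wild-type. They held 1216 of the 2107 Rbp4 UMIs in Tg7 and 277 of the 366 in Wild-type. For Arg1 they held 51 of 94 and 12 of 21. Of 46 Tg7 insulin-only cells with Irx1 or Irx2, 43.5% had Gcg at 0.1 times its threshold or more, against 3.90% of the 487 cells without them. Of 32 Tg7 cells with Hhex or Ly6h, 81.3% had Sst at 0.1 times its threshold or more, against 1.20% of 501 cells without. The cells with these genes were deeper, at a median of 30485 non-hormone UMIs with Irx1 or Irx2 and 38737 with Hhex or Ly6h, against 13845 in both sets without, and their median doublet score was 0.0232 against 0.0158. The part of depth in these shares was not tested. Wild-type cells showed the same for Sst, with 10 of 11 cells with Hhex or Ly6h, against 3 of 467 without. The Wild-type cells with Irx1 or Irx2 numbered 9, and 0 of them had such a Gcg trace.

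The comparison was therefore repeated over insulin-only cells whose Gcg, Sst and Ppy shares were each under 0.1 times their thresholds, a choice made after the data were seen. These were 428 Tg7 and 461 Wild-type cells. Irx1 was left with 1 and 0 UMIs, Hhex with 2 and 1, and Ly6h with 1 and 0, so that no fold can be given. Irx2 kept 32 UMIs in Tg7 and 10 in Wild-type, a ratio of 3.50 (1.68-7.98), and Arg1 43 and 9, a ratio of 5.23 (2.51-12.2). Ttr stood at 4241 and 2661 CPM, a ratio of 1.59 (1.57-1.62). Rbp4 stood at 124 CPM (116-133) in Tg7 and 11.4 (9.12-14.0) in Wild-type, a ratio of 10.95 (8.80-13.8). This ratio is larger than over all insulin-only cells because the 17 Wild-type cells left out held 277 of the 366 Wild-type UMIs of Rbp4.

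The difference in Rbp4 between the purest insulin cells was spread over many cells. Of these cells 55.6% (50.8-60.4) held Rbp4 in Tg7, against 6.94% (4.80-9.66) in Wild-type. Counts of 3 or more UMIs were common in Tg7, with 17.8% of cells at 3 to 5 and 7.48% at 6 to 10, against 0.868% and 0.434% in Wild-type. At the proportion of Rbp4 to Gcg seen in Gcg-only cells, the Gcg of 249 CPM in these Tg7 cells would go with 0.41 CPM of Rbp4. In the proportion of Sst-only cells, their Sst of 28.5 CPM would go with 0.664 CPM of Rbp4. These cells were chosen for low Gcg and Sst, so that low values here were set by the choice. Over all insulin-only cells, the Sst proportion would go with 21.2 CPM of Rbp4 in Tg7 and 22.2 in Wild-type. The Gcg proportion would go with 8.39 and 0.476 CPM, and the measured levels were 207 and 44.7 CPM. The part of RNA from other cells in these levels was not tested.

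**Figure D2:**
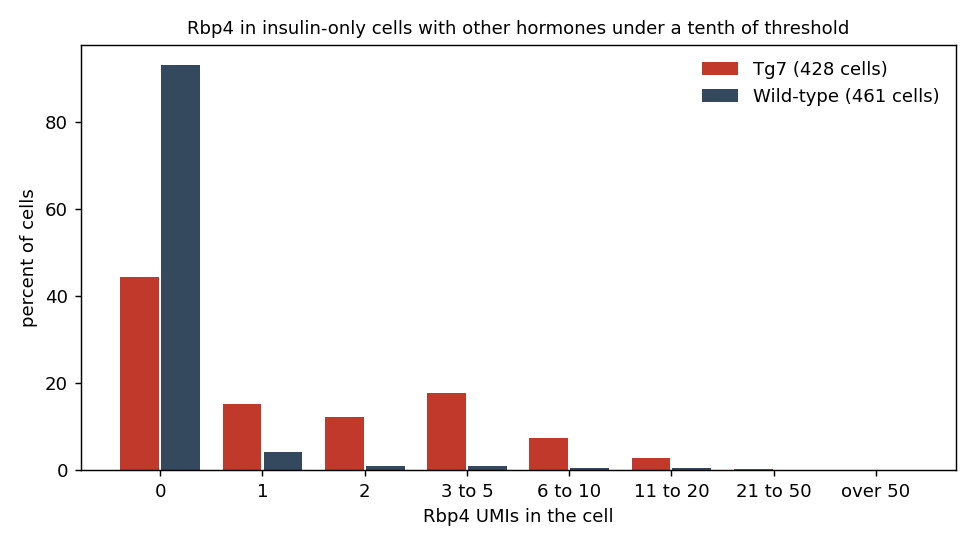
Percent of insulin-only cells (vertical axis) by the number of Rbp4 UMIs in the cell (horizontal axis), for 428 Tg7 cells (red) and 461 Wild-type cells (dark) with Gcg, Sst and Ppy each under 0.1 times the threshold. In Tg7 44.4% of cells have 0 UMIs and the rest spread up to 24 UMIs, and in Wild-type 93.1% have 0.

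Ins1 is the copy of the insulin gene that rodents carry beside Ins2, and the level of Rbp4 differed little with its share within Tg7. When insulin-only cells were ordered by the share of Ins1 among their insulin UMIs and cut into 3 sets of equal size, Rbp4 stood at 192, 192 and 237 CPM from the lowest to the highest Ins1 share. Ttr stood at 4281, 4294 and 4337 CPM over the same sets. Irx2 had 26, 13 and 18 UMIs (9.22, 3.28 and 5.29 CPM), and Hhex 2, 11 and 28 UMIs (0.709, 2.77 and 8.23 CPM). The sets include cells with a trace of another hormone. Sst stood at 699, 809 and 1207 CPM over them, and Gcg at 3311, 4900 and 6755 CPM. The 428 Tg7 cells with other hormones under 0.1 times the threshold held 2 UMIs of Hhex.

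The libraries were also compared in the single-hormone classes. In Gcg-only cells 0 of the 5 genes with enough UMIs passed 2-fold either way, against 6.08% of 8723 genes, with a median log2 ratio of -0.03 over the 5 and -0.07 over all. Tg7 over Wild-type ratios there were 0.979 (0.770-1.25) for Irx1, 1.07 (0.865-1.33) for Irx2, 1.19 (1.18-1.20) for Ttr, 0.970 (0.908-1.03) for Rbp4 and 0.714 (0.522-0.973) for Arg1. In Sst-only cells 1 of 5 genes passed, Ttr at 2.33 (1.16-4.65) on 18 and 20 UMIs, against 11.8% of 1815 genes. Ratios there were 0.634 (0.296-1.25) for Hhex, 0.771 (0.675-0.878) for Rbp4, 0.840 (0.501-1.36) for Ly6h and 1.09 (0.522-2.14) for Arg1, over 11 Tg7 and 22 Wild-type cells.

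**Figure D3:**
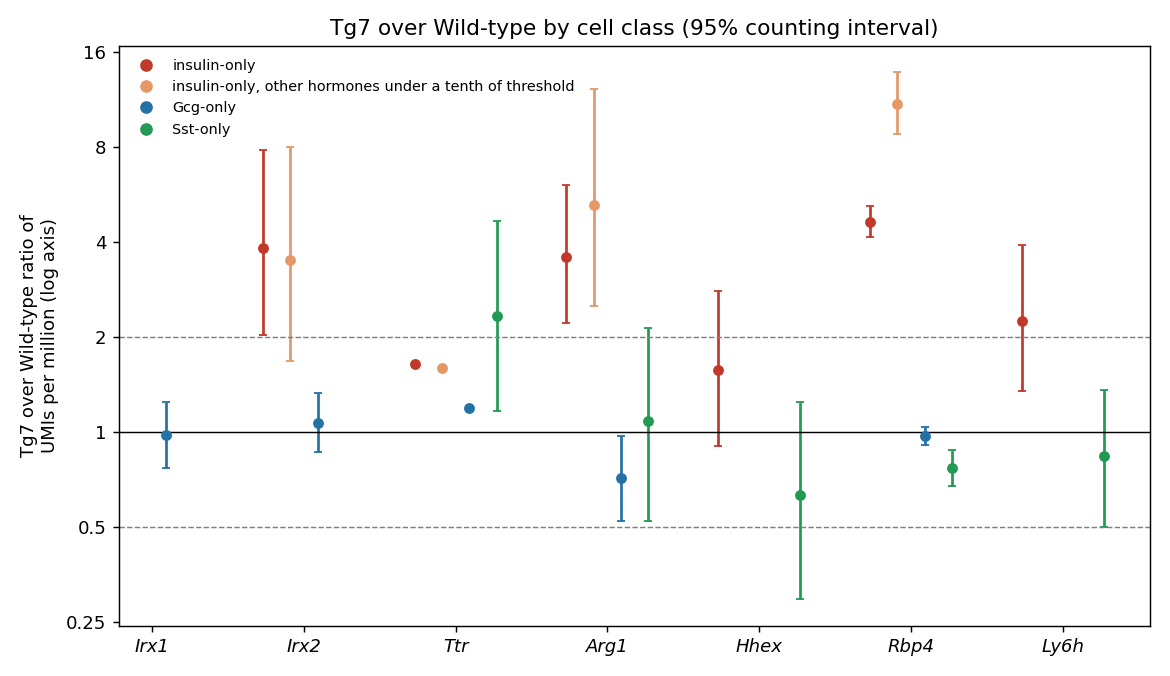
Tg7 over Wild-type ratio of levels (log axis) for each gene in insulin-only cells, in insulin-only cells with the other hormones under 0.1 times the threshold, in Gcg-only and in Sst-only cells, with 95% counting intervals, drawn where both libraries had a UMI and the sum was at least 20. Rbp4 lies at 4.62 and 10.95 in the insulin classes and at 0.970 and 0.771 in Gcg-only and Sst-only cells, and the dashed lines mark 2-fold either way.

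Cells with insulin and Gcg carried the α-side genes. In Tg7, Irx1, Irx2, Ttr, Arg1 and Rbp4 were at least 2-fold higher in the 58 insulin-Gcg cells than in insulin-only cells, 5 of 7 genes against 2.17% of 12048 genes. Of these, Arg1 and Rbp4 are not particular to the α-side, being higher in Sst-only than in Gcg-only cells, and both passed in insulin-Sst cells too. Irx1 had 51 UMIs in insulin-Gcg cells, 36.8 CPM (27.4-48.4), and 15 UMIs, 1.47 CPM (0.824-2.43), in insulin-only cells, a ratio of 25 (13.9-47.9). Irx1 was found in 29 of the 58 cells and Irx2 in 33. Irx2 stood at 45.5 CPM (35.0-58.2) in insulin-Gcg cells and 5.59 (4.24-7.25) in insulin-only cells, a ratio of 8.14 (5.60-11.9).

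Ttr stood at 14703 CPM in insulin-Gcg cells and 4305 in insulin-only cells of Tg7, a ratio of 3.42 (3.36-3.47). Rbp4 had a ratio of 2.07 (1.89-2.27) and Arg1 one of 2.19 (1.38-3.37). After thinning to 2000 non-hormone UMIs per cell, 2 of the genes, Ttr and Rbp4, passed. Hhex and Ly6h stayed within 2-fold, with a ratio of 0.898 (0.277-2.27) for Hhex on 5 UMIs and 1.12 (0.489-2.28) for Ly6h on 9 UMIs. This depended on the insulin-only cells used. Over those with other hormones under 0.1 times the threshold, the ratios were 12.9 for Hhex and 46.6 for Ly6h. These rest on few UMIs, with 2 of Hhex and 1 of Ly6h in those insulin-only cells. The Wild-type library held 2 such cells, both with Irx1, Irx2, Ttr and Rbp4 UMIs.

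Cells with insulin and Sst carried the δ-side genes in both libraries. In Tg7, Arg1, Hhex, Rbp4 and Ly6h were at least 2-fold higher in the 37 insulin-Sst cells than in insulin-only cells, 4 of 6 genes against 4.86% of 11848. Ly6h stood at 167 CPM (139-199) in insulin-Sst cells and 5.79 (4.41-7.47) in insulin-only cells, a ratio of 28.8 (21.0-40.0). Hhex stood at 115 (92.1-143) and 4.02 (2.89-5.46), a ratio of 28.7 (19.5-42.7). Arg1 had a ratio of 14.1 (10.5-19.0) and Rbp4 one of 11.2 (10.5-11.9), with Rbp4 in all 37 cells. After thinning, Arg1 and Rbp4 passed.

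The α-side genes stayed low in those cells. Irx1 had 0 UMIs in the 37 insulin-Sst cells of Tg7, which allows a share of cells with a UMI of up to 8.11%, Irx2 had 2 UMIs against 57 in insulin-only cells, a ratio of 0.485 (0.0574-1.83), and Ttr a ratio of 0.966 (0.931-1.0). In Wild-type the same 4 genes passed 2-fold of the 5 with enough UMIs, against 9.9% of 10723 genes. Their ratios of insulin-Sst over insulin-only cells were 77.9 (46.6-135) for Hhex, 72.6 (43.2-126) for Ly6h, 58.1 (33.8-103) for Arg1 and 50.1 (44.0-57.0) for Rbp4, over 13 cells. In insulin-Sst cells Rbp4 stood at 2312 CPM (2203-2424) in Tg7 and 2239 (2072-2417) in Wild-type, Arg1 at 130 (106-159) and 149 (108-200), and Ly6h at 167 (139-199) and 186 (140-243). Hhex was lower in Tg7, at 115 CPM (92.1-143) against 200 (152-258) in Wild-type, and Ttr higher, at 4157 (4011-4307) against 1430 (1297-1573), and for both the intervals did not overlap.

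Cells with insulin and Ppy, of which Wild-type had 0 at its higher Ppy threshold, stood apart from both. In the 52 Tg7 cells 1 of 6 genes passed 2-fold over insulin-only cells, Hhex at 2.24 (1.04-4.43) on 11 and 41 UMIs, against 2.6% of 12001 genes. Its ratio was 1.95 with called doublets kept and 1.71 with hormone thresholds at 0.2 times the median, both under 2-fold. Irx2 had a ratio of 1.90 (0.955-3.52), Rbp4 1.49 (1.33-1.66), Ly6h 1.27 (0.554-2.58), Arg1 1.24 (0.654-2.19) and Ttr 0.795 (0.770-0.820). Irx1 had 1 UMI.

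**Figure D4:**
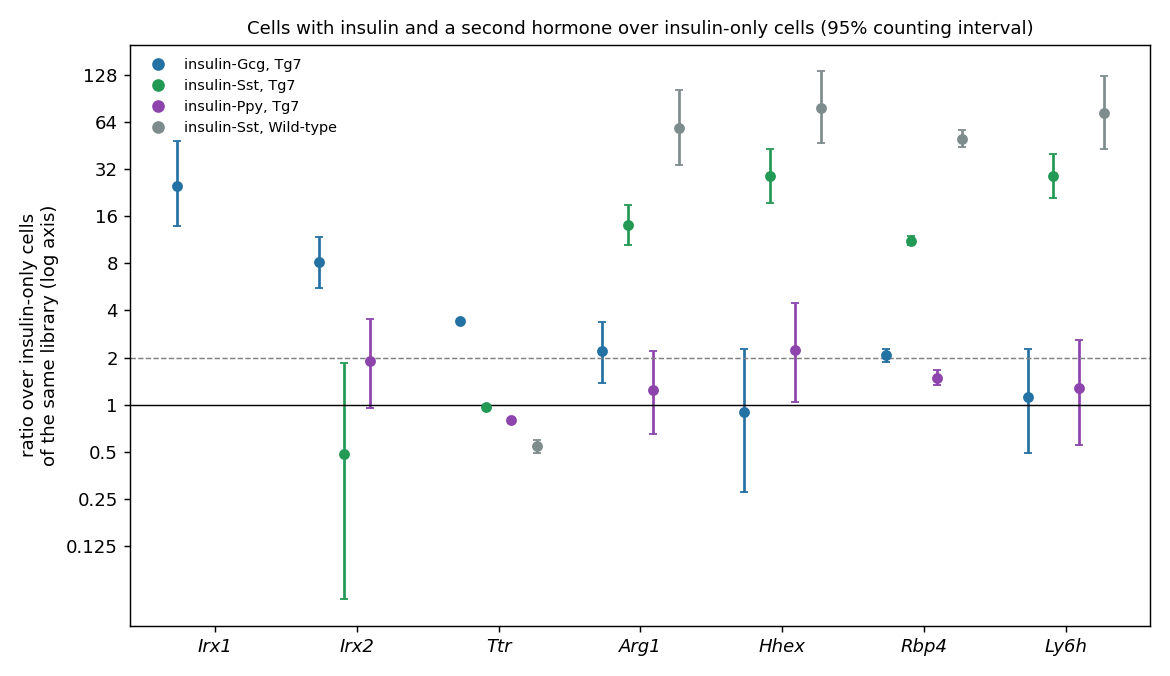
Ratio of each gene in cells with insulin and another hormone over insulin-only cells of the same library (log axis) with 95% counting intervals, drawn where both classes had a UMI and the sum was at least 20. Irx1, Irx2 and Ttr are raised in insulin-Gcg cells of Tg7 (25, 8.14 and 3.42), Hhex and Ly6h in insulin-Sst cells of Tg7 (28.7 and 28.8) and of Wild-type (77.9 and 72.6), and the insulin-Ppy points lie between 0.795 and 2.24.

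The place of the 2-hormone cells between their single classes differed from gene to gene, near that of the hormone for some and further along for others. It was computed where the single class held at least 20 UMIs. This left out Hhex and Arg1 in insulin-Sst cells of Tg7, with 11 and 13 UMIs in Sst-only cells. On the way from the insulin-only level to the Gcg-only level, insulin-Gcg cells of Tg7 had gone 17.8% for Gcg, 15.8% for Ttr, 18.1% for Rbp4, 22.6% for Arg1, 28.9% for Irx2 and 32.5% for Irx1. From the insulin-only to the Sst-only level, insulin-Sst cells of Tg7 had gone 18.2% for Sst, 38.1% for Ly6h and 39.3% for Rbp4. In Wild-type they had gone 32.5% for Sst, 30.6% for Rbp4, 36.2% for Ly6h, 61.6% for Hhex and 66.6% for Arg1.

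Cells with insulin and another hormone were deep, whereas Gcg-Ppy and Sst-Ppy cells were not. Gcg-Ppy cells held a median of 9652 non-hormone UMIs in Tg7 and 8254.5 in Wild-type, and Sst-Ppy cells 5066 and 7265. In Tg7 insulin-Gcg cells held a median of 22955.5 non-hormone UMIs, against 14635 in insulin-only and 8181 in Gcg-only cells, and insulin-Sst cells 18408, against 5030 in Sst-only cells. Their median doublet scores were 0.0271 and 0.0232, against 0.0158 in insulin-only cells. In Wild-type, Gcg-Sst cells, which lie under the insulin threshold at a median of 0.164% of UMIs, numbered 11. Their median was 23244 non-hormone UMIs, and 7 of them had UMIs of Irx1 or Irx2 together with Hhex or Ly6h. Such a pairing of α- and δ-side factors was seen in 6 of 58 insulin-Gcg cells and 2 of 37 insulin-Sst cells of Tg7. It was seen in 4 of 533 insulin-only cells of Tg7 and 2 of 478 of Wild-type, and in 1 of 149 and 0 of 133 Gcg-only cells. Whether some of these barcodes hold more than 1 cell was not tested beyond the removal of called doublets.

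The insulin-lineage reporter was present in the same cells. tdTomato was found in 32.8% of insulin-Gcg cells and 21.6% of insulin-Sst cells of Tg7, against 31.1% of insulin-only cells, and its level was 17.3, 10.9 and 21.9 CPM. Gcg-only, Sst-only and Ppy-only cells of Tg7 held 0 UMIs of it, which at 3 UMIs over the class allows up to 2.38, 55.9 and 14.5 CPM. The limit in Sst-only cells lies above the insulin-only level, so the 0 there cannot tell these classes apart. In Wild-type it was found in 52.5% of insulin-only cells and in 2 UMIs over 133 Gcg-only cells.

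Companion genes listed for each lineage gave the setting for the 7, and not every gene matched its label. In Tg7, Gc of the α-cell list stood at 335 CPM in Gcg-only, 433 in insulin-only and 577 in Sst-only cells. Fgf14 of the δ-cell list had 0 UMIs in Sst-only cells of Tg7 and 3 in those of Wild-type, too few to place it. Others matched, with Slc38a5 at 460 CPM in Gcg-only and 99.2 in insulin-only cells of Tg7. Cd24a stood at 745 CPM in Sst-only and 62.1 in insulin-only cells of Tg7. Of 8 α-cell genes, 7 reached 20 UMIs in insulin-only cells, and 5 were higher and 1 lower in Tg7 than in Wild-type. The amino acid transporter Slc38a5 had a ratio of 30.1 (20.5-45.9) and the vitamin D-binding protein Gc 5.21 (4.80-5.65), whereas the arginine transporter Slc7a2 was at 0.478 (0.433-0.528) and Peg3 at 0.778 (0.754-0.802). Of 7 δ-cell genes, 4 of the 5 with enough UMIs were higher and 0 lower, with Fgf14 at 31.3 (10.5-154) on 117 and 3 UMIs and the surface protein Cd24a at 2.55 (2.18-3.01).

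Of the β-cell genes other than Iapp, 7 of 7 were lower in Tg7, led by the cation channel Trpm5 at 0.0104 (0.00616-0.0165) and the transcription factor Mafa at 0.0402 (0.0350-0.0460). Scaled to all UMIs, 5 of 7 β-cell genes were lower, 5 of 7 α-cell genes and 5 of 5 δ-cell genes higher. In insulin-Gcg cells over insulin-only cells of Tg7, 4 of 7 α-cell genes were higher, among them Slc7a2 at 2.41 (2.05-2.82), and 0 of 5 δ-cell and 0 of 7 β-cell genes passed either way. In insulin-Sst cells, 3 of 5 δ-cell genes were higher, among them Ptprz1 at 11.4 (7.75-16.7) and Cd24a at 5.46 (4.70-6.33), and 0 of 6 α-cell genes.

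The genes whose pattern was most like each of the 7 were ranked by Pearson correlation of log2 levels over 16 class sums of both libraries, among 10988 genes. The class sums share libraries and depth, and the values describe likeness only. Irx1 was followed by Hhatl (0.93), Gfra3 (0.93) and Pdk4 (0.89), and Irx2 by Wnk3 (0.97), Vwde (0.96) and Mctp2 (0.94). Ttr was followed by Pappa2 (0.93), Ptprd (0.93) and Wnt4 (0.92). Arg1 was followed by Cldn6 (0.97), Unc5c (0.97) and Rbp4 (0.97), and Rbp4 by Auts2 (0.97), Arg1 (0.97) and Unc5c (0.96). Hhex was followed by Trp53i11 (0.88), Cd24a (0.87) and Raph1 (0.86), and Ly6h by Ppp1r17 (0.99), Cacna2d2 (0.97) and Ptprz1 (0.96).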

How the data were processed

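Islets were dissociated and measured by droplet single-cell RNA-seq (10x Genomics), 1 library per group. The authors deposited filtered matrices of UMI counts per gene and barcode, and no values were rescaled before summing. According to the submitters' processing notes, bcl2fastq 2.17.1.14, Cell Ranger 3.0.2 and STAR were used with build mm10. No source used here gives the annotation. A barcode was kept from 1000 UMIs up if mitochondrial genes took no more than 20% of them (117 of 1123 failed in Tg7 and 100 of 855 in Wild-type), and 14 and 11 barcodes called by Scrublet (scanpy 1.11.5) were removed. Totals were 29931777 and 30829078 UMIs.

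Hormone classes were rebuilt by thresholds, since no deposited cell types were used, and can differ from the study's. Cells without a hormone that held at least 3 endothelial or macrophage markers were called endothelial-like or macrophage-like. Counts were summed per class, because cells are not replicates. Levels have exact Poisson intervals, ratios conditional exact binomial intervals and shares Clopper-Pearson intervals, with 3 cells as the limit for a share of 0 (scipy 1.17.1). The ratio step was tested on simulated data. With 0 UMIs a floor of 3 UMIs over the class was used, and no fold is given where both groups are at or under it. Named genes were the 7 genes, hormones, tdTomato, companion genes with at least 100 UMIs and the 2 largest ratios either way, and the 3 most alike genes. Values of some companion genes are not reported here. The 7 genes and the lists were chosen with earlier results of these data known. Alternatives were other thresholds, filters, scalings (edgeR 4.0.16 TMM factors among them), minimum counts, equal weight per cell and thinning.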

Additional observations from a re-analysis of the deposited data

Results flagged for a closer look

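Rbp4 and Arg1 each had ratios on opposite sides of 1 in different cell classes. Rbp4 had a Tg7 over Wild-type ratio of 4.62 in insulin-only cells and 0.771 (0.675-0.878) in Sst-only cells, and Arg1 had 3.60 in insulin-only cells and 0.714 (0.522-0.973) in Gcg-only cells. In each case both counting intervals left out 1 on opposite sides. Neither ratio under 1 passed 2-fold. That of Rbp4 rests on 11 Tg7 Sst-only cells, of which 1 cell held 30.1% of the 299 UMIs. In Sst-Ppy cells Rbp4 was not lower in Tg7, at 6188 CPM (5669-6742) against 5763 (5206-6364) in Wild-type. With 1 library per group the difference between the classes was not tested.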

How the results depend on the processing

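Of 430 values of single-gene ratios under other settings, 329 stayed within the counting interval of the reported ratio and 101 left it, and no ratio called at 2-fold changed direction. The number of genes higher in Tg7 insulin-only cells was 2 with a minimum of 100 UMIs and 1 after thinning, against 4 reported. After thinning, 1 gene passed in Gcg-only cells, Arg1 at 0.344, but in another random draw its levels were 40.1 CPM in Tg7 and 72.5 in Wild-type, within 2-fold. All counts after thinning are of 1 draw. In that draw 0 passed in Sst-only cells, where 0 also passed with a minimum of 100 UMIs. After thinning, 2 genes were higher in insulin-Gcg and 2 in insulin-Sst cells of Tg7, and 1 in insulin-Sst cells of Wild-type, where 1 was also higher with a minimum of 100 UMIs. The single gene higher in insulin-Ppy cells became 0 with the threshold at 0.2, with called doublets kept, with a minimum of 100 UMIs and after thinning, and 2 with the stricter barcode filter and, chosen after seeing the data, with insulin-only cells whose other hormones were under 0.1 times the threshold. For Rbp4 in insulin-only cells the ratio ranged between 3.63 and 10.95. For Irx2 it ranged between 1.83 and 6.68 and for Ly6h between 1.17 and 3.95. The cause was not tested. No paired analysis was possible because each group is 1 library, and no replicate could be left out. Depth limits the counts of Irx1, Hhex and Ly6h, at 15 to 59 UMIs over 533 Tg7 cells.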
